A study of Mus musculus with 2 samples.

Results

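Of the 32285 genes in the count files, 10 encode surfactant proteins or the machinery of the lamellar body: Sftpc, Sftpb, Sftpa1, Sftpd, Sfta2, Napsa, Abca3, Lamp3, Lpcat1 and Slc34a2. They were chosen by symbol, and all 10 were found in the files. Pulmonary surfactant is a film of lipid and protein that lowers surface tension in the alveolus, and it is made by alveolar type 2 (AT2) cells. Its lipid is packed with surfactant proteins B and C into lamellar bodies, which are lysosome-related organelles whose contents are secreted, while surfactant proteins A and D are collectins with roles in innate defense. High levels of these transcripts are the usual mark of an AT2 cell.

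The genes were measured by droplet-based 3′ scRNA-Seq of mouse lung, in which each captured RNA molecule carries a unique molecular identifier (UMI) and is counted once. Cebpa fl/fl mice carried floxed alleles of Cebpa, a transcription factor, and Cebpa ΔSftpc mice carried in addition Sftpc-CreERT2, a tamoxifen-activated recombinase driven from the Sftpc locus. Per the study's methods, deletion was induced with 5 daily injections of 75 mg tamoxifen per kg in mice of mixed background, weekly injections followed when analysis came later than 3 months, and lungs were taken 26 weeks after the first injection. Each genotype had 1 library. It pooled 3 mice, which the barcodes do not tell apart. The driver of the recombinase is itself one of the genes described, so Cre activity and Sftpc expression are tied by the design. With 1 library per genotype no difference was tested, and every interval given is a 95% interval for counting error alone.

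The Cebpa fl/fl library held 11487 cells after filtering, with a median of 4835 UMIs per cell, and the Cebpa ΔSftpc library held 13238 cells with a median of 2607. The libraries had 44 kept barcodes in common. Cell types were gated from raw UMI counts of 127 marker genes, none of which is one of the 10 genes, and a droplet with markers of several types was set aside as mixed. The gate for AT2 cells took 409 droplets of the Cebpa fl/fl library (median 20684 UMIs) and 144 of the Cebpa ΔSftpc library (median 2082 UMIs). Their summed AT2 markers stood at 12538 and 12238 counts per 1000000 UMIs (CPM). Markers of endothelial cells stood at 657 and 829 CPM in the same droplets, and markers of fibroblasts at 46.4 and 195 CPM.

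Promoter sequence is shown for Abca3 and Lpcat1, which were lower in a class of droplets described later, and for Sftpb and Sftpa1, whose transcripts were used to find those droplets. Promoters of 7 of the 10 genes were matched in RefSeq (GRCm38.p6), and Sftpc, Sftpd and Napsa were not matched. The window searched was the 250 bases before each annotated start, and the sequences printed run from 250 to 81 bases before it, 5′ to 3′ on the gene's strand. Capitals mark the letters TTNNGNAA, a form of the C/EBP binding motif, searched on both strands. Sftpb lies at chr6:72304360-72304529, Sftpa1 at chr14:41131538-41131707, Abca3 at chr17:24351773-24351942 and Lpcat1 at chr13:73466981-73467150, each on the plus strand.
Sftpb: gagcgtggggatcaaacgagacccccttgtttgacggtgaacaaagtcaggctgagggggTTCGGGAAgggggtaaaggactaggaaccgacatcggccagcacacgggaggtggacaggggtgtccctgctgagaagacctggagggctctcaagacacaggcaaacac
Sftpa1: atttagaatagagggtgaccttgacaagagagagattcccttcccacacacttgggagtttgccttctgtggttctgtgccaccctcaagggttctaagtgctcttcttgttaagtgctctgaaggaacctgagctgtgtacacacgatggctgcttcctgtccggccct
Abca3: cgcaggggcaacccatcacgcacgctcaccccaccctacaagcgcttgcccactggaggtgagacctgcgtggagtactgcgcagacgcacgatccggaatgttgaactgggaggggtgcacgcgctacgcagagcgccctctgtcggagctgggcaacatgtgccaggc
Lpcat1: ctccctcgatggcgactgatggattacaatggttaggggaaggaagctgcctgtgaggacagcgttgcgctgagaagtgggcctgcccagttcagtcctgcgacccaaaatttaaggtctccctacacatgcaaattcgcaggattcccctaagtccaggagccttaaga
The letters occurred in the 250 bases of 2 of the 7 genes, Sftpb and Slc34a2, and in 36.9% of 27025 promoters of that length. The letters CAAGTG, a form of the NKX2-1 motif, occurred in 1 of the 7, Sftpa1, and in 11.6% of all promoters. A match is a description of letters, not a binding site.

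Among the gated types of the Cebpa fl/fl library, all 10 genes were highest in the AT2 gate. Sftpc, the hydrophobic surfactant protein C, was the most abundant at 194182 CPM. Sftpa1, a collectin, stood at 27442 CPM, and Sftpb, the hydrophobic protein needed for lamellar body formation, at 10671 CPM. Slc34a2, which imports phosphate, stood at 5070 CPM and the collectin Sftpd at 4423 CPM. The lowest 5 were Napsa, an aspartic protease that processes surfactant protein B, at 2562 CPM, Lamp3, a membrane protein of lamellar bodies, at 1517 CPM, Sfta2, a secreted surfactant-associated protein, at 1362 CPM, Lpcat1, an acyltransferase that makes saturated phosphatidylcholine, at 1148 CPM, and Abca3, the lipid pump of the lamellar body, at 751 CPM. Counts of a 3′ protocol are per molecule, so these levels need no correction for length. Summed, the 10 genes took between 22.2% and 27.9% of the UMIs of a cell from the lower to the upper quartile of cells, and between 13.1% and 21.6% in the Cebpa ΔSftpc library.

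**Figure D1:**
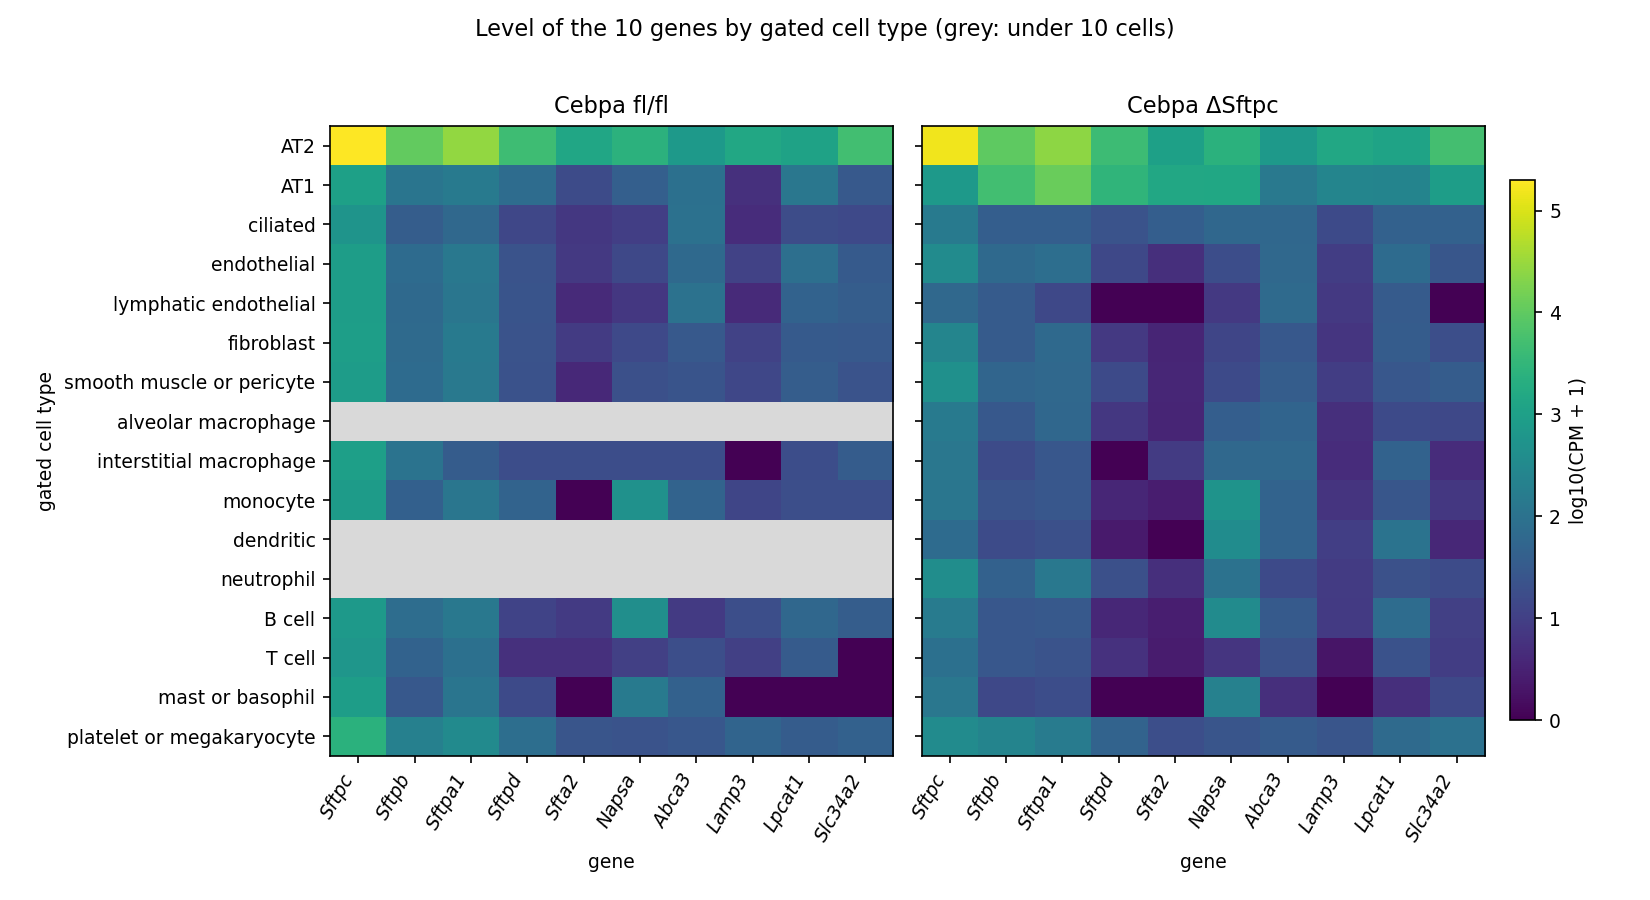
Level of each of the 10 genes (columns) in gated cell types (rows) of both libraries, as log10 of CPM plus 1, with types of under 10 cells in grey. The AT2 row is the brightest for every gene in both libraries except Sfta2 in the Cebpa ΔSftpc library (1514 CPM in the AT1 and 1027 CPM in the AT2 gate), Napsa is raised in monocytes and B cells, and the AT1 row of the Cebpa ΔSftpc library holds 4 surfactant-rich droplets among its 29.

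In the AT2 gate of the Cebpa ΔSftpc library the 10 genes were near their control levels by summed UMIs, but less so with every cell weighted equally. Sftpc stood at 154757 CPM, for a log2 ratio over Cebpa fl/fl of -0.33 (interval -0.33 to -0.32). Sfta2 stood at 1027 CPM and had the lowest ratio, -0.41 (-0.49 to -0.32). Sftpb and Sftpa1 were lower by less, at 9609 and 25039 CPM with log2 ratios of -0.15 and -0.13. Slc34a2 was higher, at 5324 CPM with a log2 ratio of 0.07 (0.03 to 0.11). For Sftpd, Napsa, Abca3, Lamp3 and Lpcat1 the interval of the ratio held 0, with ratios between -0.07 and 0.03. By summed UMIs none of the 10 genes was 1.5-fold lower or higher, against 4.76% and 10.4% of the 9344 genes measured there. Their median log2 ratio was -0.06 beside 0.08 over those genes. With every cell weighted equally the log2 ratio of Sftpc was -0.61 and the median of the 10 was -0.27. Other genes of the surfactant pathway differed in both directions. Of 12 genes of phospholipid synthesis and transfer, 11 had enough counts, of which none was at least 1.5-fold lower and 1 was at least 1.5-fold higher. Of 11 lamellar body trafficking genes, 1 was lower and 1 higher by that limit, and of 7 genes of surfactant protein maturation and turnover, 5 were measured and none passed it in either direction.

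Cebpa, the targeted gene, did not separate the libraries in this gate. It stood at 159 CPM (1297 UMIs) in the Cebpa fl/fl and 138 CPM (166 UMIs) in the Cebpa ΔSftpc library, with a log2 ratio of -0.20 (-0.44 to 0.04). Whether the counted 3′ end of Cebpa lies inside the deleted part is not given in the sources used here, so its count may not check the deletion. The AT2 gate rests on Chil1, Hc, S100g, Cxcl15 and other markers, so an AT2 cell without them would not pass it. Surfactant-rich droplets were therefore also collected without any of these markers and without Sftpc, as those with at least 10 UMIs of Sftpa1 and Sftpb together, making up at least 0.3% of the droplet's UMIs, and under 5% secretoglobin UMIs. This definition was chosen after the values had been seen.

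By this rule 470 droplets of the Cebpa fl/fl library (4.09% of cells) and 432 of the Cebpa ΔSftpc library (3.26%) were surfactant-rich. In the Cebpa fl/fl droplets Sftpc was always abundant, from 2.22 to 13.2 UMIs for each UMI of Sftpa1 and Sftpb, with a median of 5.25. In the Cebpa ΔSftpc library the droplets separated into distinct groups. In 353 droplets the ratio was 1 or more, and in 79 it was 0.118 or less, with no droplet between these values. These 79 droplets are called Sftpc-low here, and the 353 Sftpc-high. Of the 79, 47 had no UMI of Sftpc and 70 had at most 1.

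**Figure D2:**
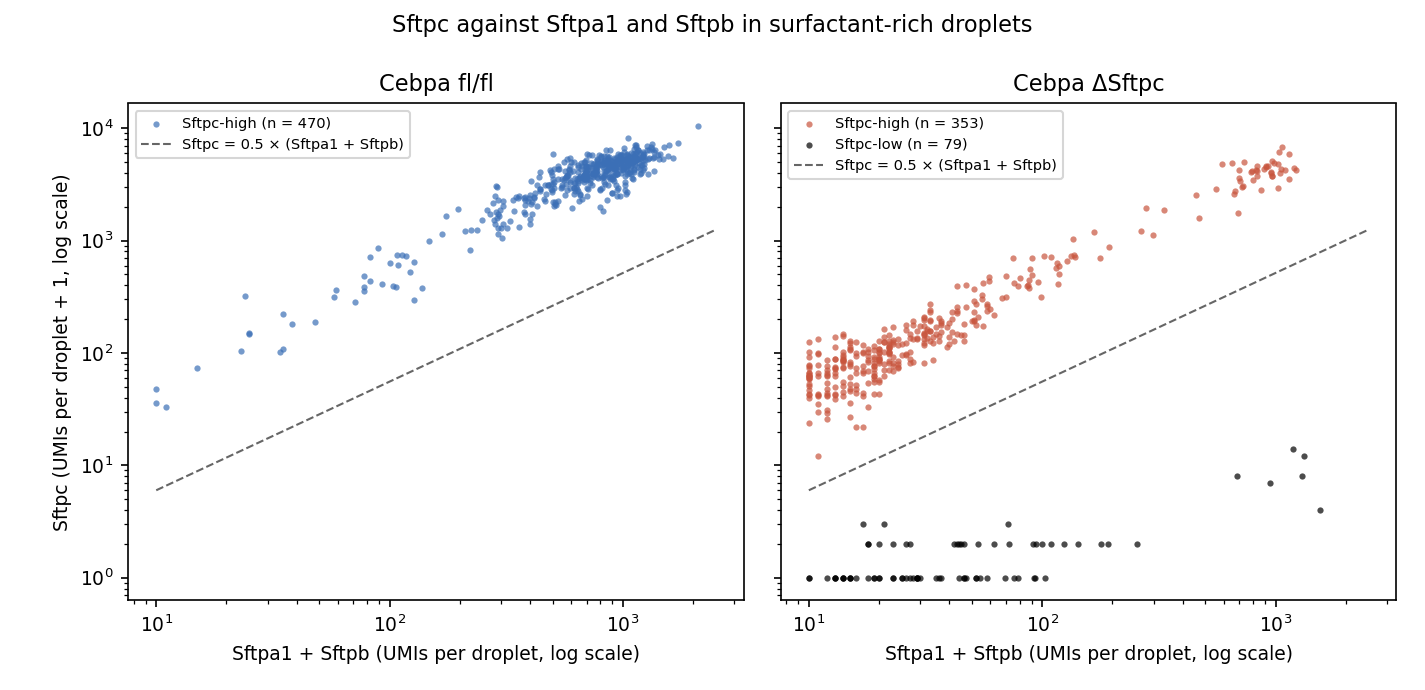
UMIs of Sftpc plus 1 against UMIs of Sftpa1 and Sftpb in each surfactant-rich droplet, on log axes, with the 470 droplets of the Cebpa fl/fl library at left and the 432 of the Cebpa ΔSftpc library at right. The dashed line marks 0.5 Sftpc UMIs per UMI of Sftpa1 and Sftpb, and the 79 black points below it are all from the Cebpa ΔSftpc library.

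Sftpc-low droplets were 18.3% of the surfactant-rich droplets of the Cebpa ΔSftpc library (79 of 432, exact Clopper-Pearson interval 14.8 to 22.3%). In the Cebpa fl/fl library they were 0 of 470, for an exact interval up to 0.782%, where 3 droplets would be 0.638%. The 0 rests on the limit of 5% secretoglobin UMIs, which was not varied. That limit left out 10 Cebpa fl/fl droplets, of which 5 were low in Sftpc, and 5 Cebpa ΔSftpc droplets, of which 5 were. Among droplets with at least 3000 UMIs the share of Sftpc-low droplets was 9.45% (12 of 127) against 0 of 448. Of the 79, 12 passed the AT2 gate, while 20 were mixed, 18 carried no gate, 15 were gated as endothelial, 7 as alveolar macrophage, 4 as AT1 and 3 as neutrophil. Of the 353 Sftpc-high droplets, 128 passed the AT2 gate, 157 were mixed and 51 were gated as endothelial. Of the 470 Cebpa fl/fl droplets, 409 passed the AT2 gate. The Sftpc-low droplets had a median depth of 1376 UMIs, against 1747 for the Sftpc-high and 20980 for the Cebpa fl/fl droplets. Sftpc in them stood at 305 CPM, against 197 CPM in non-epithelial droplets of the same library that were not surfactant-rich.

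Cebpa was nearly absent from the Sftpc-low droplets. It stood at 16.0 CPM there (4 UMIs), at 116 CPM in the Sftpc-high droplets (216 UMIs) and at 153 CPM in the surfactant-rich droplets of the Cebpa fl/fl library (1452 UMIs). Its log2 ratio of Sftpc-low over Sftpc-high was -2.85 (-4.74 to -1.48). Among droplets with at least 3000 UMIs, Cebpa was found in 1 of 12 Sftpc-low, 63 of 115 Sftpc-high and 400 of 448 Cebpa fl/fl droplets. The split used Sftpc and not Cebpa. Nkx2-1, the lineage factor of lung epithelium, stood at 337 CPM in the Sftpc-low and 285 CPM in the Sftpc-high droplets, a log2 ratio of 0.24 whose interval held 0 (-0.11 to 0.57). Of the 10 transcription factors of AT2 cells examined, 1 was at least 1.5-fold lower, Cebpa, and none was at least 1.5-fold higher, against 12.7% and 26% of all genes measured.

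The 10 genes did not move together in the Sftpc-low droplets. Lpcat1 stood at 325 CPM in the Sftpc-low and 938 CPM in the Sftpc-high droplets, a log2 ratio of -1.53 (-1.87 to -1.21). Abca3 stood at 229 and 568 CPM, a log2 ratio of -1.31 (-1.72 to -0.93). Lamp3 stood at 634 and 1151 CPM, a log2 ratio of -0.86 (-1.10 to -0.63). These genes serve the lipid and the membrane of the lamellar body, and Slc34a2, the phosphate importer, stood at 2944 and 4095 CPM with a log2 ratio of -0.48 (-0.59 to -0.37). The ratio of Slc34a2 was -0.17 in droplets with at least 3000 UMIs and -1.05 as a mean over droplets, where that of Lamp3 was -0.63. Napsa and Sfta2 were higher. Napsa stood at 3854 CPM in the Sftpc-low and 1771 CPM in the Sftpc-high droplets, a log2 ratio of 1.12 (1.02 to 1.23). Sfta2 stood at 1668 and 775 CPM, a log2 ratio of 1.11 (0.95 to 1.26). Sftpd stood at 3473 and 3215 CPM, a log2 ratio of 0.11 (0.01 to 0.21) that was -0.10 once the 10 genes and other abundant transcripts were left out of the total and -0.14 as a mean over droplets. Sftpa1 (31392 and 18337 CPM) and Sftpb (10801 and 7486 CPM) chose the droplets, and Sftpc (305 and 122387 CPM) split them, so their values are description only. Among the 7 genes that neither chose nor split the droplets, 3 were at least 1.5-fold lower (Lpcat1, Abca3 and Lamp3). At least 1.5-fold higher were 2 of the 7 (Napsa and Sfta2). Of 5590 genes measured, 12.7% were lower and 26% higher by that limit, and their median log2 ratio was 0.24. The share of higher genes among the 7 was near that of all genes. Slc34a2 joined the lower genes, making 4 of the 7, under 3 of the 4 other settings tried. Against the surfactant-rich droplets of the Cebpa fl/fl library, 4 of the same 7 genes were at least 1.5-fold lower in the Sftpc-low droplets (Lpcat1, Abca3, Lamp3 and Slc34a2) and 1 at least 1.5-fold higher (Napsa), where 5.83% and 49.7% of genes passed those limits. In that comparison Sftpb and Sftpa1 had log2 ratios of 0.06 and 0.24.

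**Figure D3:**
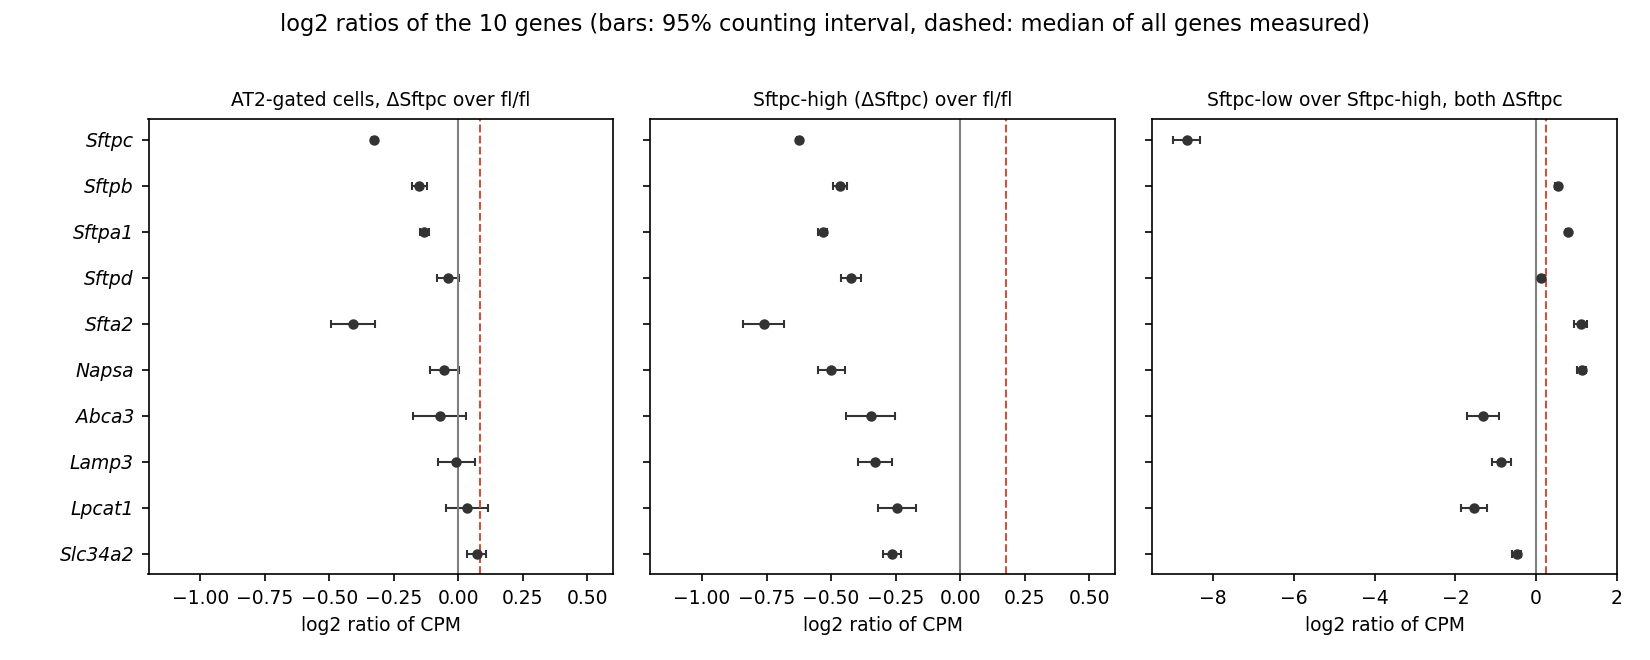
log2 ratio of CPM (x axis) for each of the 10 genes (y axis) in AT2-gated cells of Cebpa ΔSftpc over Cebpa fl/fl, in Sftpc-high droplets over surfactant-rich droplets of Cebpa fl/fl, and in Sftpc-low over Sftpc-high droplets of Cebpa ΔSftpc, with 95% counting intervals as bars and the median of all measured genes dashed. Abca3, Lamp3 and Lpcat1 lie left of 0 and Sfta2 and Napsa right of 0 in the third panel, which has a wider axis than the others.

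The 12 Sftpc-low droplets with at least 3000 UMIs held between 3083 and 25888 UMIs each and could be compared singly. Sftpc ranged from 0 to 13 UMIs among them (median 2), while Sftpa1 ranged from 12 to 1208 (median 366). Lpcat1 ranged from 0 to 755 CPM (median 155), against a median of 732 CPM in the 115 deep Sftpc-high droplets, and was below that median in 11 of 12. Abca3 had a median of 226 CPM against 495 CPM and was below the Sftpc-high median in 10 of 12. Lamp3 was below it in 9 of 12 and Slc34a2 in 8 of 12. Napsa had a median of 4043 CPM against 1473 CPM and was above the Sftpc-high median in 9 of 12, as was Sfta2. The classes overlapped for each of these genes, while Sftpc was used to split them. After thinning to 1000 UMIs per droplet, 10 of 61 Sftpc-low droplets had an Abca3 UMI (16.4%, interval 8.15 to 28.1%, 18 shallower droplets left out) and 117 of 303 Sftpc-high droplets did (38.6%, 33.1 to 44.4%, 50 left out). Unthinned, the shares were 24.1% and 57.5%. Of T cells in the same library, 1.90% had an Abca3 UMI after thinning (5 of 263), at a median depth of 7799 UMIs.

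Other genes of the surfactant pathway were counted at the same limit of 1.5-fold between the Sftpc-low and Sftpc-high droplets, which 12.7% of all genes passed downwards and 26% upwards. Of 12 genes of phospholipid synthesis and transfer, all measured, 3 were lower and 4 higher. The lowest were Fabp5, a fatty acid carrier, at 28.1 CPM in the Sftpc-low and 982 CPM in the Sftpc-high droplets, and Gpam, which starts glycerolipid synthesis, at 12.0 CPM (3 UMIs) and 123 CPM. Chka, the choline kinase, and Selenbp1 were among the higher ones, with log2 ratios of 0.76 and 1.28. Of 11 lamellar body trafficking genes, 8 were measured, 2 were higher and none was lower, a share of higher genes near that of all genes. Of 7 genes of maturation and turnover, 5 were measured, 1 was lower and 2 were higher. Ctsh, a cathepsin that processes surfactant proteins, stood at 2932 CPM in the Sftpc-low and 775 CPM in the Sftpc-high droplets. Of 9 epithelial genes outside the 10, 8 were measured and 6 were lower, among them Lyz2 (898 and 13874 CPM) and Chil1 (12.0 and 1316 CPM). Ager, an AT1 marker, was higher with a log2 ratio of 1.35. Hopx, another AT1 marker, was not, with -0.22 (-0.80 to 0.32), and -0.83 in droplets with at least 3000 UMIs. Of 7 genes of surfactant uptake by macrophages, 4 were measured, 2 were lower and 2 higher.

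Markers of other cells differed between the classes. Summed alveolar macrophage markers stood at 979 CPM in the Sftpc-low and 230 CPM in the Sftpc-high droplets, neutrophil markers at 365 and 106 CPM, endothelial markers at 2082 and 3322 CPM and erythroid markers at 136 and 1287 CPM. T cell markers were at 0 in the Sftpc-low droplets. Their part in the ratios was not tested. With droplets of a mixed or non-epithelial gate left out, 34 Sftpc-low and 137 Sftpc-high droplets gave log2 ratios of -1.69 for Lpcat1, -1.29 for Abca3, -0.92 for Lamp3, 0.82 for Napsa and 1.13 for Sfta2.

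Against the surfactant-rich droplets of the Cebpa fl/fl library, all 7 genes that neither chose nor split the droplets were lower in the Sftpc-high droplets of the Cebpa ΔSftpc library. Sftpa1, Sftpb and Sftpc were lower too, but they defined the droplets, so their values are description only. The log2 ratios of the 7 ran from -0.76 for Sfta2 to -0.27 for Slc34a2 and -0.24 for Lpcat1, where the median over 10178 genes was 0.18. That of Sftpc was -0.62. Summed markers of the AT2 gate were lower as well, at 9578 CPM against 12091 CPM in the Cebpa fl/fl droplets. At least 1.5-fold lower were Sfta2, as 1 of the 7 genes not used to choose the droplets, and Sftpc, where 3.89% of the genes measured passed that limit. With Sftpc-low and Sftpc-high droplets taken as one class, none of those 7 was at least 1.5-fold lower than in the Cebpa fl/fl library, where 3.24% of genes were, and Sftpc had a log2 ratio of -0.80. The Sftpc-high droplets were shallower and carried more RNA of other cells, with endothelial markers at 3322 CPM against 953 CPM in the Cebpa fl/fl droplets and erythroid markers at 1287 against 24.9 CPM. The part of these in the ratios was not tested.

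Outside the AT2 gate, the level of the 10 genes in 9867 non-epithelial droplets of the Cebpa fl/fl library ran from 905 CPM for Sftpc to 6.70 CPM for Sfta2. Of those droplets, 96.0% held a UMI of Sftpc. After thinning to 1000 UMIs, 58.5% of endothelial droplets of the Cebpa fl/fl library had a UMI of Sftpc, and 15.2% did in the Cebpa ΔSftpc library, and the unthinned shares were 96.1% and 40.0% at median depths of 4643 and 3906 UMIs. Summed over non-epithelial droplets Sftpc stood at 290 CPM in the Cebpa ΔSftpc library, which is -1.64 on the log2 scale (-1.67 to -1.62). Of the Cebpa ΔSftpc droplets, 84 were surfactant-rich, and without them and the 3 of the Cebpa fl/fl library the values were 197 and 863 CPM, a log2 ratio of -2.13. The other genes were lower by less. Sftpa1 stood at 136 CPM in the Cebpa fl/fl and 69.3 CPM in the Cebpa ΔSftpc library, and Sftpb at 70.0 and 51.2 CPM. Sftpd stood at 22.0 and 10.8 CPM, Slc34a2 at 29.5 and 20.8 CPM and Lamp3 at 10.3 and 6.99 CPM. At least 1.5-fold lower were 4 of the 10 genes, against 13.9% of 15249 genes measured. The median of the 10 was -0.54 beside -0.08 for all genes. Without surfactant-rich droplets, 7 of the 10 were at least 1.5-fold lower, against 14.2% of genes, and the median was -0.83.

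Napsa went the other way, from 17.5 CPM in the Cebpa fl/fl to 68.3 CPM in the Cebpa ΔSftpc non-epithelial droplets, a log2 ratio of 1.96 (1.86 to 2.07), while 14% of all genes were at least 1.5-fold higher there. The level within types differed less between the libraries. In monocytes Napsa stood at 469 CPM (20 cells) and 527 CPM (358 cells), in B cells at 424 CPM (44 cells) and 363 CPM (285 cells), and in dendritic cells at 270 CPM (5 cells) and 375 CPM (51 cells). In T cells of the Cebpa fl/fl library it was at 9.05 CPM (2 UMIs in 27 cells, interval 1.10 to 32.7), too few UMIs to compare the libraries. In fibroblasts it was at 14.1 and 12.0 CPM. The Cebpa ΔSftpc library held more monocytes, B cells and dendritic cells than the Cebpa fl/fl library, and shares of cells depend on the suspensions that were loaded.

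Abca3 and Lpcat1 were also found outside AT2 cells at levels unlike those of the secreted surfactant proteins. Free RNA from 1 source keeps its genes in 1 ratio in every droplet, so each gene was set against Sftpc within a type. In endothelial droplets of the Cebpa fl/fl library, Sftpa1 stood at 14.9 UMIs per 100 of Sftpc, which is 1.05 times the ratio of AT2-gated cells (1.02 to 1.09), and Sftpd at 1.07 times, with an interval that held 1. Abca3 stood at 18.3 times (17.6 to 19.1) and Lpcat1 at 16.1 times the AT2 ratio (15.6 to 16.7). Sftpb, Lamp3 and Slc34a2 lay further above the AT2 ratio than Sftpa1 and Sftpd, but far below Abca3 and Lpcat1. In fibroblasts the values were 8.19 for Abca3 and 5.53 for Lpcat1, against 1.10 for Sftpa1. In ciliated cells Abca3 was at 45.1 times the AT2 ratio and Sftpa1 at 0.800 times. For Napsa the ratio was 45.1 times that of AT2 cells in B cells and 44.9 times in monocytes. In T cells it was 1.13 times, on 2 UMIs of Napsa.

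**Figure D4:**
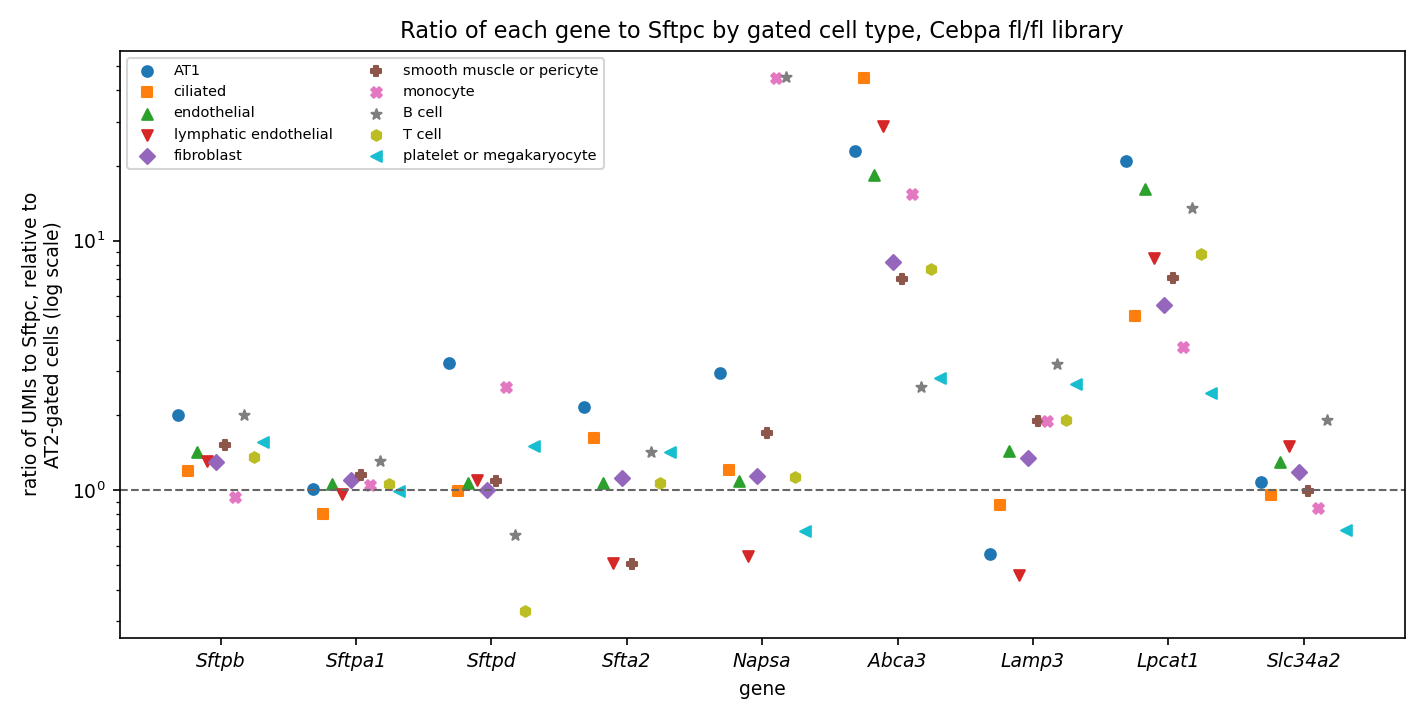
UMIs of each of 9 genes per UMI of Sftpc in 10 gated cell types of the Cebpa fl/fl library, relative to AT2-gated cells, on a log axis, with the AT2 ratio dashed at 1 and genes without a UMI in a type left out. Sftpa1 lies between 0.800 and 1.31 in the types shown, Abca3 and Lpcat1 lie above 1 in every type shown, and Napsa is far above 1 in monocytes and B cells.

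As levels, Abca3 stood in endothelial cells at 63.2 CPM for Cebpa fl/fl and 59.6 CPM for Cebpa ΔSftpc, a log2 ratio of -0.08 whose interval held 0 (-0.17 to 0.01). Lymphatic endothelial cells had 99.1 and 66.0 CPM and ciliated cells 94.1 and 58.4 CPM, while T cells had 18.1 and 19.9 CPM. Lpcat1 stood at 85.1 and 71.5 CPM in endothelial cells, at 57.0 and 72.9 CPM in B cells, and at 31.7 and 20.4 CPM in T cells. Among endothelial cells 4 of the 10 genes were at least 1.5-fold lower in the Cebpa ΔSftpc library (Sftpc, Sftpa1, Sftpd and Sfta2), against 3.71% of genes, and none at least 1.5-fold higher, against 10.1%. Because AT2 cells are few, these low levels add up. Non-epithelial droplets held 27.7% of all Abca3 UMIs and 25.5% of all Lpcat1 UMIs of the Cebpa fl/fl library, against 2.49% of the Sftpc UMIs. In the Cebpa ΔSftpc library they held 59.9% of the Abca3, 54.1% of the Lpcat1 and 38.5% of the Napsa UMIs.

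In the Cebpa ΔSftpc library the non-epithelial droplets had more Sftpb and Sftpa1 for each Sftpc than AT2 cells did. Endothelial droplets there had 17.6 UMIs of Sftpb per 100 of Sftpc, against 6.21 in AT2-gated cells of that library, and 22.8 UMIs of Sftpa1 against 16.2. In the Cebpa fl/fl library the same ratios were 7.78 against 5.50 for Sftpb and 14.9 against 14.1 for Sftpa1.

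Epithelial gates other than AT2 held surfactant transcripts of several kinds. The AT1 gate of the Cebpa fl/fl library (104 droplets) had 1023 CPM of Sftpc, 146 of Sftpa1 and 113 of Sftpb. That of the Cebpa ΔSftpc library (29 droplets) had 715 CPM of Sftpc but 12439 of Sftpa1 and 5016 of Sftpb, and without the 4 surfactant-rich droplets in it 1060, 236 and 221 CPM. The airway secretory gate of the Cebpa ΔSftpc library (47 droplets) had 1849 CPM of Sftpa1, 885 of Sftpb and 402 of Sftpd beside 67.5 of Sftpc. In each library 5 droplets with at least 5% secretoglobin UMIs were rich in Sftpa1 and Sftpb and low in Sftpc, by the limits used above. Their Sftpa1, Sftpb and Sftpc are therefore description only. They had 5789 CPM of Sftpa1, 859 of Sftpb, 928 of Sftpd and 515 of Sftpc in the Cebpa fl/fl library, and 2124, 1448, 599 and 48.1 CPM in the Cebpa ΔSftpc library. Abca3 had no UMI in the former (interval up to 63.4 CPM) and stood at 83.3 CPM in the latter.

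The genes whose pattern over types was most like that of the 10 were sought in the Cebpa fl/fl library, by the correlation of log2(CPM + 10) with the mean of the 10 over 13 types, among 2325 genes. They were Muc1 (r = 0.993), Chil1 (0.990), Hc (0.988), Elf5 (0.985) and Rbpjl (0.983), of which Chil1 and Hc are markers used for the gate. The types share 1 library and its free RNA, so the correlations are a description. Among the 10 genes, Napsa (0.810) and Abca3 (0.831) were least like the mean. In the Sftpc-low droplets, Muc1, a membrane mucin, stood at 714 CPM against 347 CPM in the Sftpc-high droplets, while Chil1 and Hc, at 12.0 and 40.1 CPM, were far below their 1316 and 1046 CPM there. Rbpjl stood at 152 CPM in the Sftpc-low against 102 CPM in the Sftpc-high droplets, and Elf5 at 28.1 CPM (7 UMIs) against 42.9 CPM.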

How the data were processed

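The deposited values are raw UMI counts per gene and barcode that the authors made from 10x 3′ libraries with Cell Ranger (6.1.1 per the labels and 5.0.0 in the file headers) on mm10. They were not normalized. The barcodes in the files equal in number the cells that the paper gives after filtering. The labels speak of sorted cells and the methods of suspensions, so which cells were loaded is not known.

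Droplets were kept where 200 or more genes were detected and mitochondrial UMIs did not exceed 20%. Each of 20 types was scored by the share of UMIs from its markers over the 75th percentile (0.75 quantile) of that share among droplets with at least 5 UMIs over 3 markers. A type needed 3 UMIs over 2 markers and a score of 0.2, and a droplet whose next score was over 0.33 of the best was called mixed. No doublet caller was run. Counts were summed per type as CPM with exact Poisson intervals, and log2 ratios have exact conditional binomial intervals with each count raised to a floor of 3. Intervals cover counting error only. Genes with at least 50 UMIs over both groups were measured, and a 1.5-fold difference was used for counts of genes. Whether counting used strand is not given in the sources used here. Genes on the opposite strand overlap Napsa, Slc34a2, Abca3, Sfta2 and Cebpa in GENCODE M21 (GRCm38), and without strand their reads could not be told apart. Python 3.11.15, numpy 2.4.6, pandas 2.3.3 and scipy 1.17.1 were used. The intervals of the log2 ratios were tested on simulated Poisson counts without variation between droplets or mice, so that test covers counting error only.

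The 10 genes and the gene lists were chosen with earlier results of these data known. The marker lists were set first, while gate thresholds and the surfactant-rich and Sftpc-low classes were settled after values were seen. Named are the 10 genes, genes of the lists and the 5 genes most alike. Any other gene was chosen after its values were seen. Airway secretory gates hold AT2 droplets in the Cebpa fl/fl library (18 of 46 were surfactant-rich) and are not plotted.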

Additional observations from a re-analysis of the deposited data

How the results depend on the processing

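No paired analysis was possible because each genotype had 1 library, and for the same reason no replicate could be left out. The log2 ratio of Sftpc in AT2-gated cells was -0.33 and its direction held under every alternative run. It was -0.30 with a filter of 500 genes and 10% mitochondrial UMIs, -0.29 with at least 3000 UMIs per cell, -0.27 with a stricter gate, -0.39 with the 10 genes and other abundant transcripts out of the total, -0.61 as a mean over cells, -0.28 with free RNA subtracted and -0.26 without Sftpc-low droplets. The median of the 10 genes there moved beyond counting error only as a mean over cells, to -0.27. In non-epithelial droplets the Sftpc ratio of -1.64 became -1.72 with the stricter filter, -1.93 with 3000 UMIs, -1.43 with the stricter gate, -1.29 as a mean over cells and -2.13 without surfactant-rich droplets, and the median of -0.54 became -0.77 with 3000 UMIs, -0.33 as a mean over cells and -0.83 without surfactant-rich droplets. Alternatives on surfactant-rich droplets were chosen after the data were seen. The share of Sftpc-low droplets was 18.3% with a ratio limit of 0.2 or 1, between 18.9% and 22.2% under the other 3 definitions that kept all depths, and 9.45% with at least 3000 UMIs. All of these kept the secretoglobin limit. Of the log2 ratios of Sftpc-low over Sftpc-high droplets, that of Sftpd changed sign, to -0.10 with the smaller total and -0.14 as a mean over droplets. The cause of these shifts was not tested. Surfactant-rich droplets had a median of 20980 UMIs for Cebpa fl/fl and 1619 for Cebpa ΔSftpc, which limits the counts per droplet in the latter.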

Other observations

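Other genes also separated the Sftpc-low from the Sftpc-high droplets of the Cebpa ΔSftpc library, all chosen after their values were seen. Higher in the Sftpc-low droplets were Sox9, a factor of the distal lung tip in development, with 49 UMIs against 2, the keratins Krt8 (638 and 138 CPM) and Krt18 (630 and 138 CPM), the cell cycle inhibitor Cdkn1a (582 and 131 CPM), Ccng1 (225 and 31.6 CPM) and Clu (1019 and 145 CPM). In droplets with at least 3000 UMIs the log2 ratios were 2.05 for Krt8, 2.24 for Krt18, 2.08 for Cdkn1a and 3.15 for Clu, and 48 of the Sox9 UMIs came from those 12 droplets. Cebpg and Cebpb, of the same factor family as Cebpa, were higher as well, with log2 ratios of 2.33 (1.96 to 2.69) and 1.61 (1.27 to 1.95). Cebpd, also of that family, had a log2 ratio of 0.22 whose interval held 0 (-0.20 to 0.62). In droplets with at least 3000 UMIs the ratios were 2.73 for Cebpg, 1.10 for Cebpb and -0.53 (-1.22 to 0.10) for Cebpd. Cldn4 had 2 UMIs in each class.

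Among AT2 genes outside the surfactant list, Lyz2, Chil1, Hc, Fabp5, S100g and Cxcl15 had log2 ratios between -2.21 for Cxcl15 and -6.77 for Chil1 (3 UMIs, interval -9.05 to -5.22). S100a8 and S100a9, abundant in neutrophils, stood at 1480 and 1628 CPM in all Sftpc-low droplets and at 393 and 495 CPM in the Sftpc-high. In droplets with at least 3000 UMIs their log2 ratios were -0.11 and -0.54, with intervals that held 0.

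Droplets gated as platelets or megakaryocytes were shallow for Cebpa fl/fl (median 1037 UMIs) and held 2388 CPM of Sftpc, against 892 CPM in endothelial droplets.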
